A study of Rattus norvegicus with 9 samples.

Results

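The lipofibroblast genes described here are 9 genes chosen by symbol, Pthlh, Pth1r, Pparg, Tcf21, Plin2, Lpl, Cd36, Fabp4 and Fabp5, among 17465 genes measured in fetal rat lung. All 9 were found in the count table through their NCBI Gene IDs, and all 9 passed the filter on low counts, with 12966 genes in all. The lungs came from Sprague-Dawley rats and formed 3 groups of 3 libraries, each library numbered 1 to 3. Control lungs were untreated. Hypoplastic lungs, which are small and immature, were also untreated, and the series title traces the hypoplasia to oligohydramnios, a lack of amniotic fluid. Treated lungs were hypoplastic lungs given AFSC-EVs, extracellular vesicles released by amniotic fluid stem cells. The labels read for this work do not state the fetal age, the way oligohydramnios was brought about, the vesicle dose and route, and the litter. The p-values therefore measure the spread between these lungs, some of which may be littermates.

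Lipofibroblasts are interstitial fibroblasts of the developing lung that hold neutral fat in droplets and lie next to alveolar type II cells. Parathyroid hormone-related protein, made by the epithelium in response to stretch, acts on its receptor on these fibroblasts, and through cyclic AMP it raises the nuclear receptor PPARG. PPARG drives genes of fat uptake and storage, and the stored fat is passed to type II cells as a substrate for surfactant. Leptin from lipofibroblasts is thought to act back on the epithelium through its receptor.

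RefSeq promoter sequence was at hand for 5 of the 9 genes, with 7 start sites (assembly GRCr8; the submitters' processing notes name another build, rn7). Of these, 5 windows of 250 bases, ending just before the start, are shown, each with at least 1 match to a motif listed below. They belong to Pth1r, to Pparg with its 2 starts, to the upstream Plin2 start and to Cd36. They read 5′ to 3′ in lower case, with capitals where a searched motif matched on either strand.
Pth1r (chr8:119595572-119595821, minus strand): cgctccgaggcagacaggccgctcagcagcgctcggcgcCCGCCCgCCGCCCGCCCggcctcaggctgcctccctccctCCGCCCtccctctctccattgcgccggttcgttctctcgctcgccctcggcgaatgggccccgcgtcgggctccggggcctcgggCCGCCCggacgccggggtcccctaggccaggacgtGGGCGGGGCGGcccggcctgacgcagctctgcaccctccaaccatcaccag
Pparg, upstream start (chr4:150096808-150097057, plus strand): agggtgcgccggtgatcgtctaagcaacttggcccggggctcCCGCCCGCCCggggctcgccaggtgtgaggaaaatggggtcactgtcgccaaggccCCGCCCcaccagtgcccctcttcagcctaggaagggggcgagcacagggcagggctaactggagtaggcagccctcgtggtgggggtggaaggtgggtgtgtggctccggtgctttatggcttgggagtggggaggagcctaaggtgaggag
Pparg, downstream start (chr4:150154522-150154771, plus strand): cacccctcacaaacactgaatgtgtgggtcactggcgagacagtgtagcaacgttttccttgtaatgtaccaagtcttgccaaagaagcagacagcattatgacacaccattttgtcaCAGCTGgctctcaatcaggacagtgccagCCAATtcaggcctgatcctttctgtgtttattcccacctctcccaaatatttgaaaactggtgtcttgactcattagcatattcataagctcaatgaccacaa
Plin2, upstream start (chr5:106229019-106229268, minus strand): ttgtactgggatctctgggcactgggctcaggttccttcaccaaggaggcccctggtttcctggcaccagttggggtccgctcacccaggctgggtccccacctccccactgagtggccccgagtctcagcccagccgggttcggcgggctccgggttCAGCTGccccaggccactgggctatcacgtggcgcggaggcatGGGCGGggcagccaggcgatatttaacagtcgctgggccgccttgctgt
Cd36 (chr4:18246332-18246581, plus strand): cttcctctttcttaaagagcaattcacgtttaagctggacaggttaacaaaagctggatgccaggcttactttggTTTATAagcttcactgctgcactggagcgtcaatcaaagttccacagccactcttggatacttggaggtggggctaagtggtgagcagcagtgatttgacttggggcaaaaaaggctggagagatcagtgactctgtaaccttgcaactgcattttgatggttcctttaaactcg
The motifs searched on both strands were the TATA box TATAAA, the CCAAT box with the letters CCAAT, the GC box GGGCGG, the nuclear receptor element AGGTCA, its direct repeat spaced by 1 base (the PPAR type, DR1), the cyclic AMP response element TGACGTCA, and the E-box in the form CAGCTG or in the form CATATG. The direct repeat holds the nuclear receptor element within it. The Pth1r window held 7 GC boxes, some of them overlapping, and 77.6% G or C, against a median of 51.2% over all 33469 windows of this length. The 2 Pparg starts differed. The upstream window was 67.2% G or C with 3 GC boxes, and the downstream window was 44.8% G or C with a CCAAT and a CAGCTG. The upstream Plin2 window held 1 GC box, 49 bases before the start, and 1 CAGCTG. The Cd36 window held 1 TATAAA, read on the opposite strand 175 bases before the start. A GC box occurred in 30.5% of all windows, TATAAA in 12.9%, CCAAT in 34.0% and CAGCTG in 12.0%. The windows not shown, of Tcf21 (53.6% G or C) and of the downstream Plin2 start (47.2% G or C), held no match to any searched motif. None of the 7 member windows held AGGTCA (14.1% of all windows), the direct repeat (0.0508%), the cyclic AMP element (1.59%) or CATATG (3.63%). A match or its lack describes these letters in these windows and nothing more.

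Levels are given as CPM, the estimated counts of a gene relative to the library size, with library sizes scaled by the TMM method, and library totals ran from 56922779 to 88243188 estimated counts. Levels are compared within a gene only, since no transcript length was at hand. A gene was called when the adjusted p of edgeR's quasi-likelihood test, with Benjamini-Hochberg adjustment over all 12966 genes, was under 0.05. The lung label held, with the surfactant gene Sftpc at 292 to 951 CPM. Hypoplastic libraries 1 and 2 stood apart by markers of other tissues. Summed heart muscle markers (11 genes) were at 285 and 143 CPM there and at 28.1 to 56.3 CPM in the other 7 libraries. Summed squamous and basal epithelial markers (6 genes) were at 97.3 and 22.0 CPM against 4.36 to 12.1 CPM. In hypoplastic library 2 most of that sum was Krt15 (18 CPM). Krt14 (0.931 CPM) and Col17a1 (2.68 CPM) were second there only to hypoplastic library 1. Krt5 (0.196 CPM), Krt13 (0.131 CPM) and Dsg3 (0.0327 CPM) were lower there than in control library 2. Control library 2 had the lowest summed smooth muscle markers (505 CPM) and the highest alveolar type II markers (6180 CPM). In whole lungs, fewer cells of a type and less RNA per cell cannot be told apart.

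**Figure D1:**
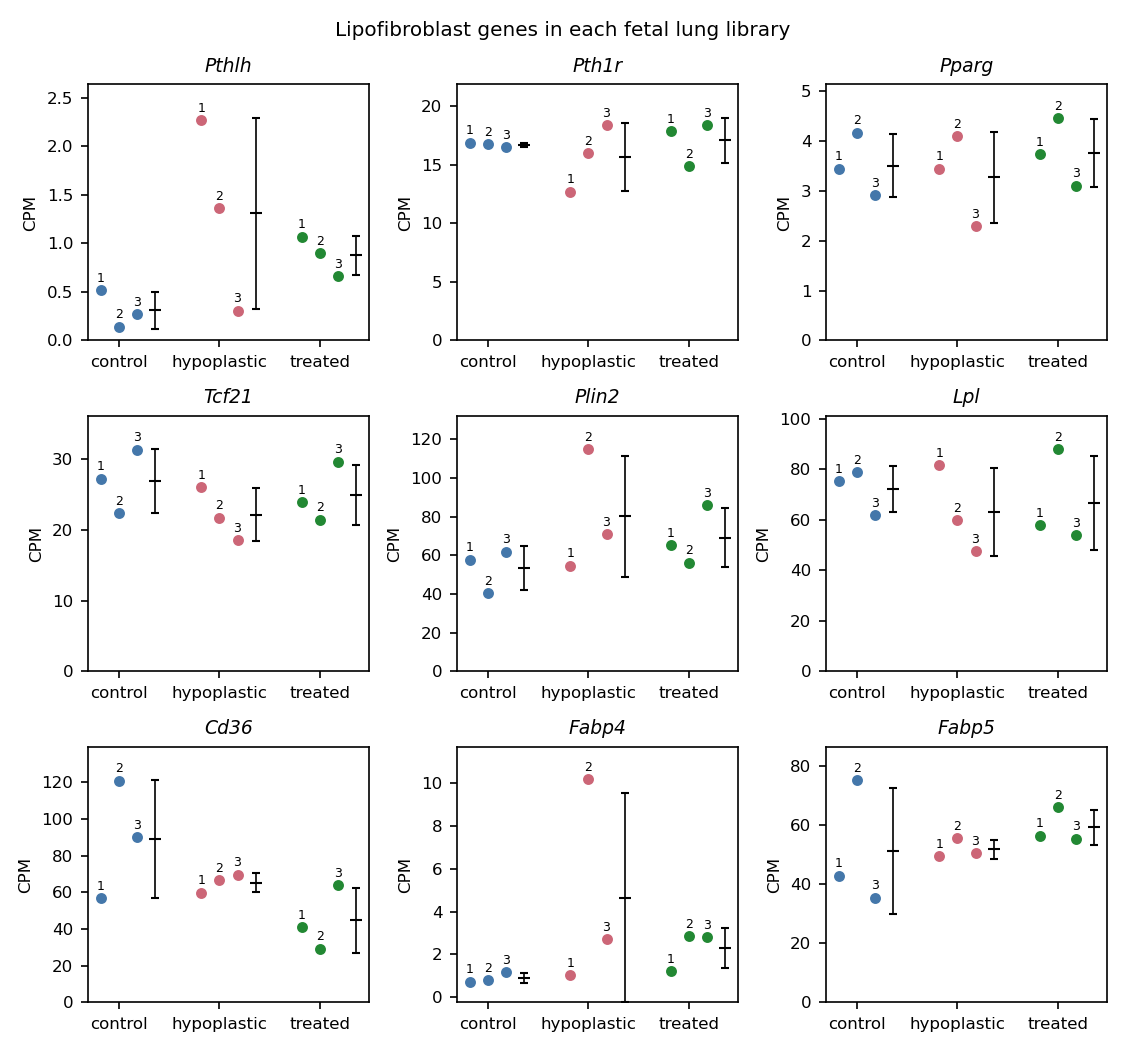
Level of each lipofibroblast gene in CPM (vertical axis) in the 3 libraries of each group (points, with the replicate number), beside the group mean and SD (n = 3). Fabp4 and Plin2 were highest in hypoplastic library 2, Pthlh in hypoplastic library 1, and Cd36 in control library 2.

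None of the 9 genes was called in any of the 3 comparisons by edgeR or by limma voom. Between hypoplastic and control lungs edgeR called 1 gene of all tested (0.00771%). An unadjusted p under 0.05 was seen for 2 of the 9 members, Pthlh and Fabp4, both higher, and for 12.4% of all genes tested (6.67% higher and 5.69% lower). No member was without overlap between these groups, as 16.7% of all genes were. DESeq2 called 1 member, Fabp4, where it called 1.62% of the genes it tested. In treated against hypoplastic lungs edgeR called 0% of all genes and 0 members reached an unadjusted p under 0.05 (5.56% of all genes) or lacked overlap (9.81%). In treated against control lungs edgeR again called 0% and 1 member, Cd36, reached it, lower (4.17% of all genes, 1.67% higher and 2.5% lower), while 2 members lacked overlap, both higher (9.39% of all genes, 4.37% higher). DESeq2 called 0 members in both. The median log2 fold change of the 9 was -0.09, 0.08 and 0.11 in the 3 comparisons, beside 0.01, -0.01 and 0 for all genes tested. Of the 9 changes, 4 were above 0 between hypoplastic and control lungs (51.9% of all genes, with 48.1% below 0), 5 between treated and hypoplastic lungs (48.1%, with 51.9% below 0) and 6 between treated and control lungs (50.6%). Each pair of comparisons shares 3 libraries. Over the 9 libraries the SD of log2 CPM was 1.2 for Fabp4, 1.18 for Pthlh, 0.59 for Cd36 and 0.43 for Plin2, and at most 0.32 for the other 5 genes. With 1 library left out at a time, the members at that level between hypoplastic and control lungs numbered 1 without hypoplastic library 2 and 3 without control library 1 or control library 2. Over all genes the number at that level was 1603 with all libraries, 1179 without hypoplastic library 2, 1432 without control library 1 and 853 without control library 2.

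**Figure D2:**
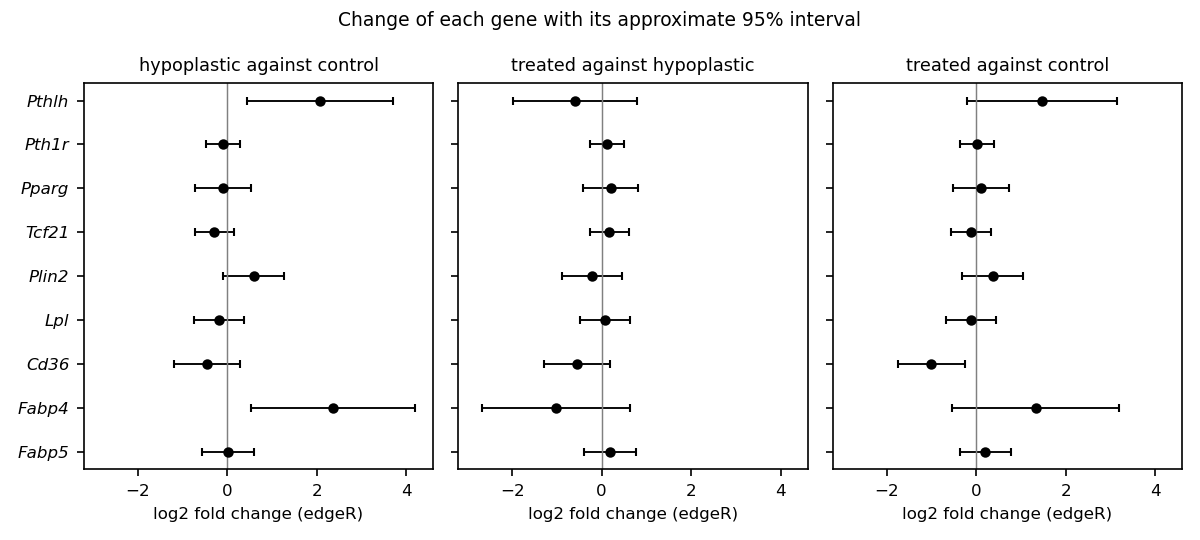
Log2 fold change of each gene in the 3 comparisons (horizontal axis, edgeR) with an approximate 95% interval. Pthlh and Fabp4 had the widest intervals, and the Pth1r intervals stayed within -0.47 to 0.50 in all 3 panels.

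The ligand of the circuit, Pthlh (Gene ID 24695), encodes parathyroid hormone-related protein. It was at 0.521, 0.143 and 0.271 CPM in control libraries 1 to 3, at 2.27, 1.36 and 0.308 CPM in the hypoplastic libraries and at 1.07, 0.897 and 0.662 CPM in the treated libraries. Hypoplastic libraries 1 and 2 lay above every control library, while hypoplastic library 3 lay within the control range, so these groups overlapped. The treated libraries all lay above the control libraries, as was so for 4.37% of all genes tested. The log2 fold change was 2.07 (SE 0.667, unadjusted p 0.0118, edgeR adjusted p 0.325) in hypoplastic against control lungs. In treated against control lungs it was 1.47 (SE 0.685, edgeR adjusted p 0.998), and in treated against hypoplastic lungs -0.60 (SE 0.565, edgeR adjusted p 0.941). Pthlh rested on few reads, from 8 estimated counts in control library 2 to 149 in hypoplastic library 1. Without hypoplastic library 1 the first change was 1.41 (edgeR adjusted p 0.449) and the last turned to 0.06. Pthlh is also made by squamous epithelium and cartilage. Hypoplastic library 1 had the highest summed squamous and basal markers (97.3 CPM) and the highest summed cartilage markers, 8 genes at 1270 CPM against 240 to 691 CPM in the other libraries. Of the squamous and basal list, Krt15 (63.0 CPM), Krt5 and Krt14 (both 14.9 CPM) and Col17a1 (4.38 CPM) were highest in that library. Krt13 (0.0762 CPM) and Dsg3 (0.061 CPM) were not, with their highest values in control library 2 (1.23 CPM) and treated library 3 (0.382 CPM). Col2a1 held 894 CPM of the cartilage sum in hypoplastic library 1. Of the cartilage list only Sox9 was not highest in that library, at 169 CPM against 187 CPM in control library 1. No marker in either list was at 0 in all libraries, and their part in the Pthlh values was not tested.

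Its receptor Pth1r (Gene ID 56813) was the steadiest of the 9. The values were 16.9, 16.8 and 16.5 CPM in control, 12.7, 16.0 and 18.4 CPM in hypoplastic and 17.9, 14.9 and 18.4 CPM in treated libraries. Hypoplastic library 1, the library with the most Pthlh, had the least Pth1r. The groups overlapped, and the log2 fold change was -0.09 (SE 0.156) for hypoplastic against control lungs, 0.12 (SE 0.155) for treated against hypoplastic lungs and 0.03 (SE 0.155) for treated against control lungs. The approximate 95% intervals were -0.47 to 0.29, -0.26 to 0.50 and -0.35 to 0.41. Over the 9 libraries its SD of log2 CPM was 0.17, and 30.5% of genes tested had a smaller one.

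Of 15 further genes of parathyroid hormone ligands, receptors and cyclic AMP signalling, 12 were tested and none was called in any comparison by edgeR. The ligands Pth and Pth2 were at 0 in every library. In hypoplastic against control lungs 8 of 12 had a positive and 4 a negative change, with a median of 0.11. Prkar2b, a regulatory subunit of protein kinase A, had the smallest p. It was at 17.2, 15.9 and 17.6 CPM in control and 23.1, 21.7 and 21.7 CPM in hypoplastic libraries, which did not overlap, and differed by 0.39 on the log2 scale (SE 0.139, edgeR adjusted p 0.347). Non-overlap towards higher values was seen in 7.68% of all genes tested. In treated libraries it was at 24.5, 21.5 and 17.3 CPM.

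Pparg (Gene ID 25664), the nuclear receptor that drives fat storage, was low and level. It was at 3.45, 4.17 and 2.92 CPM in control, 3.45, 4.10 and 2.30 CPM in hypoplastic and 3.74, 4.47 and 3.11 CPM in treated libraries. In each group library 3 was lowest and library 2 highest. The log2 fold changes were -0.09 (SE 0.257), 0.20 (SE 0.254) and 0.11 (SE 0.253), with edgeR adjusted p of 0.908, 0.955 and 0.998. Between hypoplastic and control lungs the interval was -0.72 to 0.54, so a change of 1 log2 unit either way lay outside it.

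Tcf21 (Gene ID 252856), a mesenchymal transcription factor that marks the lipofibroblast lineage, was at 27.2, 22.3 and 31.3 CPM in control libraries. It was at 26.0, 21.7 and 18.5 CPM in hypoplastic and at 23.9, 21.4 and 29.6 CPM in treated libraries. The lowest library was hypoplastic 3, and the groups overlapped. The log2 fold changes were -0.29 (SE 0.181, edgeR adjusted p 0.535) in hypoplastic against control and 0.17 (SE 0.180, edgeR adjusted p 0.943) in treated against hypoplastic lungs.

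Among 20 further PPAR and adipogenic transcription factors, all tested, none was called by edgeR. In hypoplastic against control lungs 5 were lower and 2 higher without overlap, beside 9.05% and 7.68% of all genes tested. The genes of smallest p with a mean of at least 1 CPM were Cebpb and Klf15, factors that act before and with PPARG in fat cells. Cebpb was at 181, 183 and 222 CPM in control, 145, 136 and 103 CPM in hypoplastic and 178, 156 and 192 CPM in treated libraries. Every hypoplastic library thus lay below every other library. The log2 fold change was -0.61 (SE 0.147, edgeR adjusted p 0.317) in hypoplastic against control and 0.46 (SE 0.147, edgeR adjusted p 0.859) in treated against hypoplastic lungs, 2 comparisons that share the hypoplastic libraries. Treated libraries lay above hypoplastic ones without overlap for 5.07% of all genes tested. Klf15 was at 24.7, 38.1 and 30.7 CPM in control and 21.2, 20.4 and 17.9 CPM in hypoplastic libraries, a log2 difference of -0.65 (SE 0.182, edgeR adjusted p 0.317). Cebpa, named after its values were seen, was at 73.7, 127 and 82.2 CPM in control and 52.2, 64.4 and 67.0 CPM in hypoplastic libraries (log2 fold change -0.62, SE 0.204, edgeR adjusted p 0.325). Alveolar type II cells also express Cebpa, and all 9 markers of these cells had a negative change in the same comparison, with a summed level of 3390 to 6180 CPM in control and 2450 to 2930 CPM in hypoplastic libraries. None of those markers was at 0, and their part in the values of these factors was not tested. In treated against hypoplastic lungs 3 of the 20 had an unadjusted p under 0.05, of which 1 was lower (3.56% of all genes) and 2 were higher (2% of all genes). After Cebpb the smallest p at that mean was that of Ncor1, a corepressor, at 161, 177 and 150 CPM in hypoplastic and 207, 201 and 185 CPM in treated libraries (log2 fold change 0.28, SE 0.0934, edgeR adjusted p 0.859).

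Plin2 (Gene ID 298199) encodes the protein coat of the lipid droplet and is the usual marker of lipid-laden fibroblasts. It was at 57.8, 40.4 and 61.9 CPM in control, 54.6, 115 and 70.9 CPM in hypoplastic and 65.2, 56.2 and 86.0 CPM in treated libraries. Hypoplastic library 2 was the highest, treated library 3 came next, and the groups overlapped. The log2 fold change was 0.59 (SE 0.276, unadjusted p 0.0613, edgeR adjusted p 0.425) in hypoplastic against control lungs. It was -0.21 (SE 0.275, edgeR adjusted p 0.957) in treated against hypoplastic and 0.37 (SE 0.276, edgeR adjusted p 0.998) in treated against control lungs. Without hypoplastic library 2 the first change was 0.23 and the second turned to 0.14. The summed macrophage markers were also highest in hypoplastic library 2 (705 CPM), with treated library 3 next (603 CPM). They were lowest in control library 2 (262 CPM), where Plin2 was lowest. Lyz2 was the largest part of these sums, at 332, 292 and 216 CPM in the same order. The part of macrophages in the Plin2 values was not tested.

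Of 20 further genes of lipid droplets and triglyceride enzymes, 17 were in the table and 16 were tested, with none called by edgeR in any comparison. The median log2 fold change was -0.06, 0.04 and -0.02 in the 3 comparisons. Gpam, which starts triglyceride synthesis, had the smallest p in hypoplastic against control lungs, at 97.5, 145 and 116 CPM in control and 87.9, 88.8 and 98.4 CPM in hypoplastic libraries (log2 fold change -0.38, SE 0.144, edgeR adjusted p 0.361). Agpat2, the next enzyme of that pathway, differed by -0.39 on the log2 scale (SE 0.184, edgeR adjusted p 0.420). Of the droplet genes typical of fat cells, Cidea was at 0.196 to 2.25 CPM, Plin1 was at 0.19 CPM or less in every library, and Cidec at 0.357 CPM or less. Of the other fat cell markers, Lep and Elovl3 were at 0 in all libraries, Adipoq was at 0.0362 CPM or less, and Cfd was at 0.41 to 4.71 CPM.

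Lpl (Gene ID 24539), the lipase that frees fatty acids from lipoproteins, was at 75.3, 78.9 and 61.7 CPM in control, 81.6, 59.9 and 47.5 CPM in hypoplastic and 57.9, 88.0 and 53.8 CPM in treated libraries. The 3 groups overlapped. The log2 fold changes were -0.19 (SE 0.230), 0.08 (SE 0.230) and -0.11 (SE 0.230), with edgeR adjusted p of 0.765, 0.979 and 0.998. Among 19 further genes of lipase partners and lipid uptake, 18 were in the table, 15 were tested and none was called by edgeR. Angptl8, an inhibitor of the lipase, had the smallest p in hypoplastic against control lungs. It was at 4.06, 6.49 and 3.43 CPM in control, 2.29, 1.59 and 1.21 CPM in hypoplastic and 2.03, 2.76 and 2.54 CPM in treated libraries. Untreated and treated hypoplastic libraries all lay below every control library (in treated against control lungs 5.02% of all genes were lower without overlap), with log2 fold changes of -1.44 (SE 0.313, edgeR adjusted p 0.317) and -0.92 (SE 0.300, edgeR adjusted p 0.998). Angptl4, another inhibitor and a PPAR target, was at 55.5 CPM in hypoplastic library 2, 17.1 CPM in treated library 3 and 5.23 CPM or less in the other 7.

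Cd36 (Gene ID 29184), a receptor that takes up fatty acids, was at 56.8, 121 and 90.0 CPM in control libraries. It was at 59.9, 66.7 and 69.7 CPM in hypoplastic and at 41.1, 29.4 and 63.9 CPM in treated libraries. The hypoplastic libraries lay close together, the control libraries were spread, and treated libraries 1 and 2 were below all others. Treated library 3 lay above control library 1, so these groups overlapped. The log2 fold change was -1 (SE 0.306, unadjusted p 0.00913, edgeR adjusted p 0.998) in treated against control lungs, with an approximate 95% interval of -1.75 to -0.25. By unadjusted p it was gene 81 of the 12966. It was -0.45 (SE 0.303, edgeR adjusted p 0.567) in hypoplastic against control and -0.55 (SE 0.304, edgeR adjusted p 0.911) in treated against hypoplastic lungs. Without control library 2, the treated against control change was -0.71. Endothelium, macrophages and heart muscle also express Cd36. The summed endothelial markers, 14 genes with none at 0 throughout, were at 1530 to 1850 CPM in control and 1410 to 1780 CPM in treated libraries, with 11 of 14 changes negative and a median of -0.11. The summed macrophage markers, 13 genes, were at 262 to 474 and 401 to 603 CPM, with 12 of 12 tested changes positive. Lyz2 was the largest part of these sums, at 216 to 312 and 270 to 299 CPM. The summed heart muscle markers were at 31.1 to 56.3 and 31.8 to 42.2 CPM, with 7 of 9 tested changes negative and a median of -0.82. Most of these heart sums was Ryr2, at 22.5 to 40.1 and 21.8 to 27.7 CPM, while Myh6 was at 0.0136 to 3.12 and 0.338 to 0.734 CPM. The part of these cell types in the Cd36 values was not tested. The related gene Cd36l1, chosen after its values were seen, was highest in the same control library, at 40.2 CPM, and its log2 fold change in treated against control lungs was -0.64 (SE 0.439, edgeR adjusted p 0.998). Whether reads were shared between Cd36 and its relatives is not known.

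Fabp4 (Gene ID 79451), the fatty acid carrier typical of fat cells, macrophages and capillary endothelium, was at 0.735, 0.785 and 1.18 CPM in control libraries. It was at 1.04, 10.2 and 2.73 CPM in hypoplastic and at 1.21, 2.86 and 2.81 CPM in treated libraries. Hypoplastic library 2 held the most by far, while hypoplastic library 1 lay within the control range. The treated libraries all lay above the control libraries, treated library 1 only just. The log2 fold change was 2.36 (SE 0.748, unadjusted p 0.0109, edgeR adjusted p 0.323) in hypoplastic against control lungs, and DESeq2 gave an adjusted p of 0.0275. Without hypoplastic library 2 it was 1.03 (edgeR adjusted p 0.589). The change was 1.33 (SE 0.759, edgeR adjusted p 0.998) in treated against control and -1.02 (SE 0.677, edgeR adjusted p 0.927) in treated against hypoplastic lungs, and the last turned to 0.30 without hypoplastic library 2. That library also had the highest summed macrophage markers, 705 CPM against 262 to 603 CPM elsewhere, and the highest summed fat cell markers, 10.8 CPM against 1.05 to 5.79 CPM. Lyz2 held 332 CPM of that macrophage sum. Most of the fat cell sum there came from Retn (4.34 CPM), Cfd (3.03 CPM) and Cidea (2.25 CPM), while Adipoq was at 0.0163 CPM, Plin1 at 0.098 CPM, Cidec at 0.196 CPM and Lep at 0. Cfd was higher in hypoplastic library 3, at 4.71 CPM. The mesenchyme sum of the same library, 23 genes at 16900 CPM against 4060 to 8850 CPM elsewhere, came mostly from the collagens Col1a1 (5820 CPM), Col3a1 (5270 CPM) and Col1a2 (3230 CPM). Pdgfra (333 CPM), Dcn (147 CPM), Zeb1 (78.7 CPM), Lum (75.1 CPM) and Twist1 (5.49 CPM) of that list were also at their highest there. Limch1, Itga8, Meox2 and Robo2 were at their lowest. In hypoplastic against control lungs all 12 macrophage markers tested had a positive change, with a median of 0.94, and none was called by edgeR. Of the 14 endothelial markers 10 had a negative change, with a median of -0.07, and their sum was at 1530 to 1850 CPM in control and 1480 to 1780 CPM in hypoplastic libraries. In hypoplastic library 2 the endothelial sum was 1723 CPM. Ednrb (112 CPM), Esam (63.7 CPM) and Car4 (2.58 CPM) of that list were at their highest there. Aplnr (138 CPM), Plvap (108 CPM) and Egfl7 (48.6 CPM) were at their lowest. Marco was the macrophage marker not tested, at 0.0163 CPM or less. The part of these cells in the Fabp4 values was not tested.

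Fabp5 (Gene ID 140868), the epidermal type carrier that many cells express, was at 42.8, 75.2 and 35.4 CPM in control, 49.4, 55.4 and 50.5 CPM in hypoplastic and 56.3, 66.0 and 55.3 CPM in treated libraries. The highest and the lowest library were both controls. The log2 fold changes were 0.02 (SE 0.237), 0.19 (SE 0.237) and 0.21 (SE 0.237), with edgeR adjusted p of 0.983, 0.955 and 0.998. Fabp5 has pseudogenes in the rat, and its count may include reads from them. Of 11 other genes of the fatty acid and retinoid binding protein family only 4 were tested. All 4 had a positive change in hypoplastic against control lungs, with a median of 0.52, and none was called by edgeR. Crabp2, a retinoic acid carrier, had the smallest p, at 1.16, 0.91 and 0.827 CPM in control and 1.97, 4.93 and 1.12 CPM in hypoplastic libraries (log2 fold change 1.47, SE 0.510, edgeR adjusted p 0.338).

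**Figure D3:**
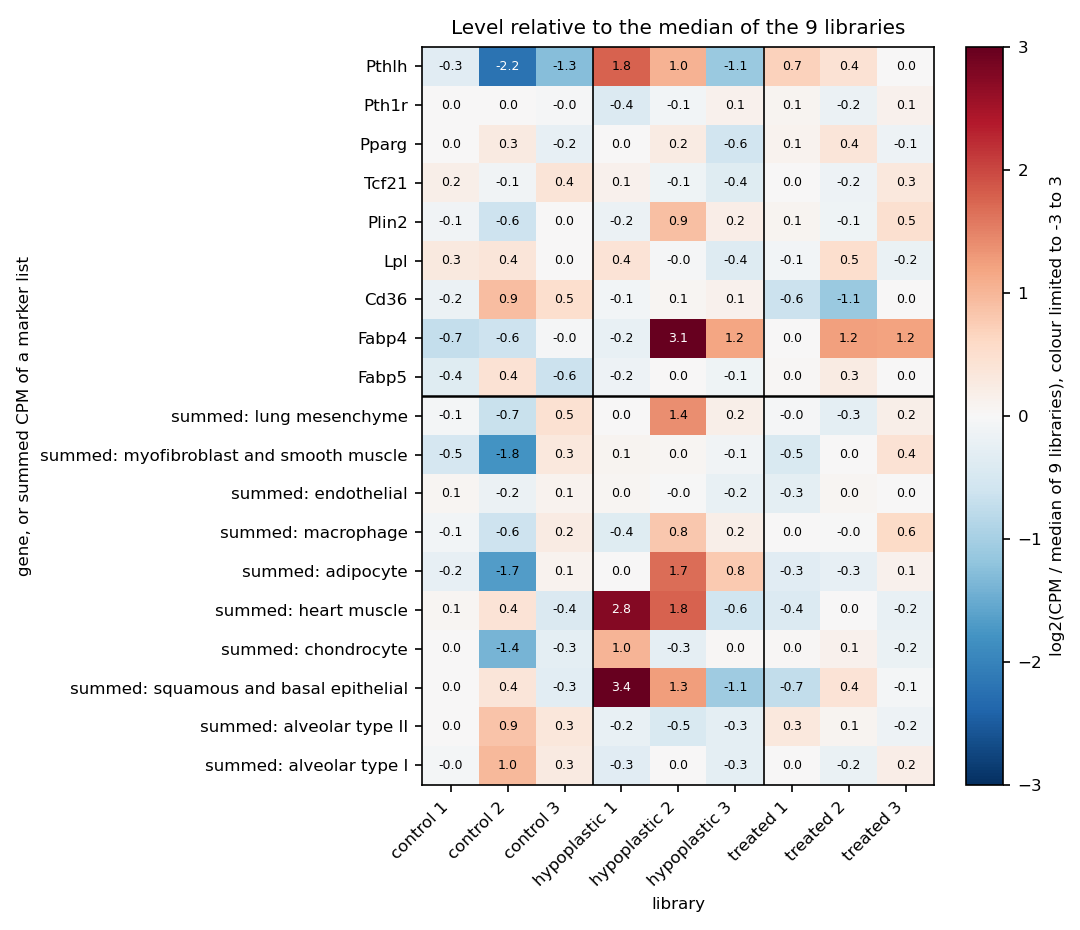
Level of each lipofibroblast gene, and summed CPM of cell type markers, in each library (columns) relative to the median of the 9 libraries, on a log2 scale. The highest Fabp4 and Plin2 stand in hypoplastic library 2, beside high summed macrophage, mesenchyme and fat cell markers. The CPM of the mesenchyme and fat cell sums came mostly from a few genes each, and Lyz2 was the largest part of the macrophage sum. The highest Pthlh stands in hypoplastic library 1, beside high summed heart, cartilage and squamous or basal markers.

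Of 15 genes of the ligands and signals around the lipofibroblast, 13 were tested and none was called by edgeR. Lepr, the leptin receptor, had the smallest p in both comparisons with control (edgeR adjusted p 0.185 in each), which share the control libraries. It was at 25.2, 37.8 and 27.3 CPM in control, 13.5, 9.84 and 13.7 CPM in hypoplastic and 8.72, 9.47 and 11.3 CPM in treated libraries. Hypoplastic and treated libraries all lay below every control library, as was so for 9.05% and 5.02% of all genes tested. Lep, the ligand of this receptor, was at 0 in all libraries. Fgf10, a mesenchymal growth factor tied to the lipofibroblast lineage, was at 4.62 to 6.23 CPM over the 9 libraries, with a log2 difference of 0.04 (SE 0.176, edgeR adjusted p 0.949) in hypoplastic against control lungs. Igf1, a growth factor made by mesenchyme and macrophages, was at 27.6, 10.5 and 33.7 CPM in control libraries. In hypoplastic libraries it was at 40.9, 59.4 and 46.7 CPM (log2 fold change 1.03, SE 0.382, edgeR adjusted p 0.359). These groups did not overlap, as was so towards higher values for 7.68% of all genes tested. The part of macrophages in the Igf1 values was not tested. Ptger4, a prostaglandin E2 receptor, was the gene of smallest p in treated against hypoplastic lungs, at 1.97, 3.61 and 1.78 CPM in hypoplastic and 1.11, 0.718 and 1.22 CPM in treated libraries (log2 fold change -1.28, SE 0.531, edgeR adjusted p 0.895). These did not overlap, as was so towards lower values for 4.74% of all genes tested.

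Whether the 9 genes varied together from lung to lung was examined with Pearson's r of log2 CPM over the 9 libraries for all 36 pairs. Of the 36, 16 were positive, and none passed an adjusted p of 0.05 in an exact two-sided permutation test with Benjamini-Hochberg adjustment, by r or by Spearman's rho. The highest was that of Plin2 and Fabp4, at r = 0.85 (exact permutation p 0.00411, adjusted 0.148) and rho = 0.67 (exact permutation p 0.0589, adjusted 0.514). It was 0.76 after each group was centred on its mean and 0.56 without the 2 libraries farthest from the Plin2 median. Pth1r and Lpl ran opposite, at r = -0.73 (exact permutation p 0.0172, adjusted 0.309) and rho = -0.82 (exact permutation p 0.0108, adjusted 0.194), and r was -0.63 without the 2 farthest libraries. Pparg and Lpl had r = 0.70 (exact permutation p 0.0318, adjusted 0.381) and rho = 0.62 (exact permutation p 0.0857, adjusted 0.514), and r was 0.28 without the 2 farthest. Plin2 and Lpl had r = -0.63 (exact permutation p 0.063, adjusted 0.463) and rho = -0.82 (exact permutation p 0.0108, adjusted 0.194). Without the 2 libraries farthest from the Plin2 median r was -0.82. Pparg and its target Plin2 had r = -0.17 (exact permutation p 0.653, adjusted 0.967) and rho = -0.37 (exact permutation p 0.336, adjusted 0.861). The ligand and receptor, Pthlh and Pth1r, had r = -0.57 (exact permutation p 0.107, adjusted 0.482) and rho = -0.42 (exact permutation p 0.270, adjusted 0.861).

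**Figure D4:**
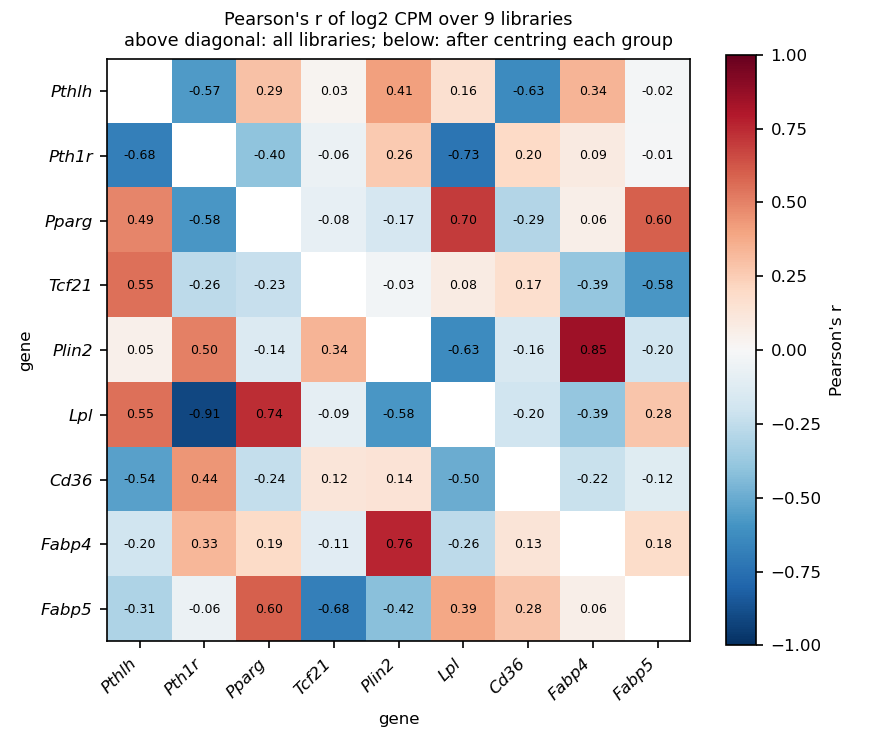
Pearson's r of log2 CPM between each pair of lipofibroblast genes over 9 libraries, above the diagonal for the values as they are and below it after each group was centred on its mean. Above the diagonal Plin2 and Fabp4 have the highest value, 0.85, and Pth1r and Lpl the lowest, -0.73. Below it these pairs are at 0.76 and -0.91.

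The genes whose levels over the 9 libraries were most like those of a member, among those with a mean of at least 1 CPM, were found by the same r as a description, since with so few libraries many genes reach a high value. The number of genes with r of 0.9 or more was 251 for Plin2, 33 for Fabp4, 17 for Pth1r, 16 for Lpl, 9 for Pthlh, 9 for Fabp5, 8 for Cd36, 6 for Pparg and 2 for Tcf21. The closest to Plin2 were Htra3 (0.988), Cd53 (0.981), a leukocyte membrane gene, and Bcl2a1 (0.98), a survival gene of leukocytes. Fabp4 was followed most closely by Ripk3 (0.962), Nr4a3 (0.959) and Lzts3 (0.955). Nearest to Pthlh were Epb41l3 (0.98), Dnajb3 (0.955) and Grip1 (0.934). For Cd36 they were Rsph4a (0.946), a gene of motile cilia, Ap4e1 (0.938) and Smim20 (0.921). Pparg was tracked by Tubb6 (0.958), Fkbp11 (0.952) and Dnlz (0.914), and Lpl by Shtn1 (0.958), Rgs17 (0.942) and Rps6kl1 (0.942). The 3 nearest to Pth1r were Grpel1 (0.95), Sprtn (0.946) and Tjap1 (0.937). Tcf21 had Rpp25l (0.914), Crip2 (0.907) and Kctd6 (0.865), and Fabp5 had Cmpk2 (0.943), Cep290 (0.933) and Tmcc2 (0.93). No member stood among the 3 nearest genes of another member. Pthlh could not, since its mean of 0.833 CPM was under the limit of 1 CPM.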

How the data were processed

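RNA of 9 fetal rat lungs was sequenced after ribosomal RNA depletion (Ribo-Zero Plus), and per the labels' protocols every extraction was made on the same day. The authors deposited 1 table of estimated counts, 17465 genes by 9 libraries, without normalization between libraries; 19.5% of the nonzero values were exactly whole. The submitters' processing notes name the build rn7 and DESeq2, without saying what either was used for. The aligner is not given in the sources used here, nor is the counter or the handling of reads that match several genes. Symbols came from RefSeq (GRCr8), which matched 17314 Gene IDs (99.1%). Ribosomal and 7SL RNA (6 rows) held 14.07 to 19.93% of each library.

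Counts were rounded and tested with edgeR 4.0.16 (R 4.3.3): TMM factors, filterByExpr, glmQLFit, glmQLFTest, all 9 libraries in 1 fit with 6 residual degrees of freedom, called at an adjusted p under 0.05. The tests had been planned for whole counts. Standard errors are the change divided by the root of F, and the 95% intervals built on them are approximate. The procedure was tested on simulated data. Alternatives were DESeq2 1.42.0, limma 3.58.1 voom, RLE factors, 2 other filters, the 6 libraries compared alone, a replicate block, a sex covariate from Xist and Ddx3y, omission of the ribosomal and 7SL rows, and omission of each library. By Xist and Ddx3y, control lungs were 1 female and 2 male, and hypoplastic and treated lungs were each 2 female and 1 male. With the sex covariate 0 members were called. The Pthlh change was then 1.66 in hypoplastic against control lungs (edgeR adjusted p 0.584) and 1.14 in treated against control lungs. The members and lists were chosen with earlier results of these data known, so no p over the list alone is given. List genes are named by the smallest p, up to 2 per list and comparison, at a mean of at least 1 CPM; some are not reported here.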

Additional observations from a re-analysis of the deposited data

How the results depend on the processing

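Among the changes of the 9 genes in the 3 comparisons, 386 of the values under the alternatives kept their direction and their side of the threshold, 18 changed sign and 1, Fabp4 by DESeq2, passed it (1 member called, against 0). Every change of sign came from leaving out 1 library. In hypoplastic against control lungs the log2 change with 1 library left out ran from -0.2246 to 0.04057 for Pth1r, -0.2793 to 0.1061 for Pparg and -0.1884 to 0.4038 for Fabp5. In treated against hypoplastic lungs it ran from -1.046 to 0.05646 for Pthlh, -0.01233 to 0.2533 for Pth1r, -0.4258 to 0.1406 for Plin2, -0.1714 to 0.3117 for Lpl and -1.501 to 0.3001 for Fabp4. In treated against control lungs it ran from -0.03007 to 0.1193 for Pth1r, -0.02913 to 0.2518 for Pparg, -0.2518 to 0.009425 for Tcf21 and -0.3645 to 0.02066 for Lpl. Over all genes edgeR called 1, 0 and 0 in the 3 comparisons, and DESeq2 212, 15 and 16. In hypoplastic against control lungs the count was 4 with only the 6 libraries compared. With 1 library left out it ran from 0 to 45, 0 to 44 and 0 to 1 in the 3 comparisons, with 45 and 44 both without hypoplastic library 3, and the number of members called was 0 throughout. The cause was not tested. Same-numbered libraries of different groups had correlations of -0.282 to 0.227 in their deviations from the group means, above 0.1 in 3 of 9 pairs, so the numbers were not taken as pairs; with the replicate block edgeR called 2, 0 and 0 genes and 0 members. Pthlh, at 8 to 149 estimated counts, is the member most limited by depth.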
